A study of Drosophila melanogaster with 4 samples.

Results

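Flies with little Kdm5 were compared after 6 hours on paraquat and after 6 hours on sucrose alone, gene by gene, with 1 RNA-seq library on each side. The genes described were chosen by a fixed level, an RPKM (reads scaled by gene length and library total) of at least 1 in either mutant library, which kept 8288 of the 12073 genes listed in any library of the series. Mutant flies carried kdm5 K6801/10424, a pair of alleles of the histone demethylase gene Kdm5, in the w1118 strain, and wild type flies were w1118. Mutants fed for 6 hours on 20 mM paraquat in 5% sucrose form the first group and mutants on 5% sucrose alone its control, and wild type flies on the same 2 diets are set beside them. All were adult females aged 1 to 3 days, taken whole and extracted in groups of 5.

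Paraquat is a herbicide that takes electrons from cellular enzymes and passes them to oxygen, which yields superoxide. In flies the response is known to include glutathione S-transferases and other targets of the transcription factor CncC, stress kinase signalling and metal-binding proteins. Kdm5 removes methyl groups from lysine 4 of histone H3, a mark of active promoters, and it has also been tied to the activation of stress genes in this insect.

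The mutant libraries held 29.1 M uniquely mapped reads with paraquat and 28.3 M in control. As each group is a single library, the data hold no measure of the spread between flies, and no test was run. The words higher and lower are used of a gene when log2(RPKM + 1) differed by at least 1 between the libraries. Folds are ratios of RPKM, and each 95% interval after them is an exact Clopper-Pearson interval that covers counting error only. In whole flies a lower level cannot be told apart from fewer cells of the type that makes the transcript. The allele pair leaves some Kdm5 reads: Kdm5 itself (FBgn0031759, at 5989400 to 5999501 of chromosome arm 2L in BDGP6) was at 2.03 RPKM in mutants with paraquat and 2.06 in mutant controls, and at 22.5 and 43.4 RPKM in the wild type libraries with paraquat and in control. The male accessory gland and testis list reached at most 0.123 RPKM with paraquat and 0.252 RPKM in control over its 6 listed members, with 1 of them at 0 reads in each of those libraries.

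The response was narrow. With paraquat 59 genes were higher (0.712% of those measured) and 50 were lower (0.603%), or 1.32% in either direction, while 8179 were neither. Of the 8288 genes, 94.2% lay within 0.5 of no difference on the log2 scale, the median was −0.05 and the quartiles were −0.14 and 0.06. The SD of the differences across genes was 0.283, against 0.757 in wild type. Genes called higher had a median level of 25.4 RPKM with paraquat and 8.0 in control, and those called lower 9.24 with paraquat and 25.0 in control. A difference of at least 2 was reached by 12 of the higher genes and 5 of the lower ones. Just inside the upper limit stood mt:ND6 at 1.01 and CG13321 at 1.02, and just outside it the glutathione S-transferase gene GstD9 at 0.995 and the metallothionein gene MtnA at 0.97. On the other side Lsp1alpha and CG8736, both at −1.004, were just inside, and Diedel3 and DptB, both at −0.99, were just outside.

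**Figure D1:**
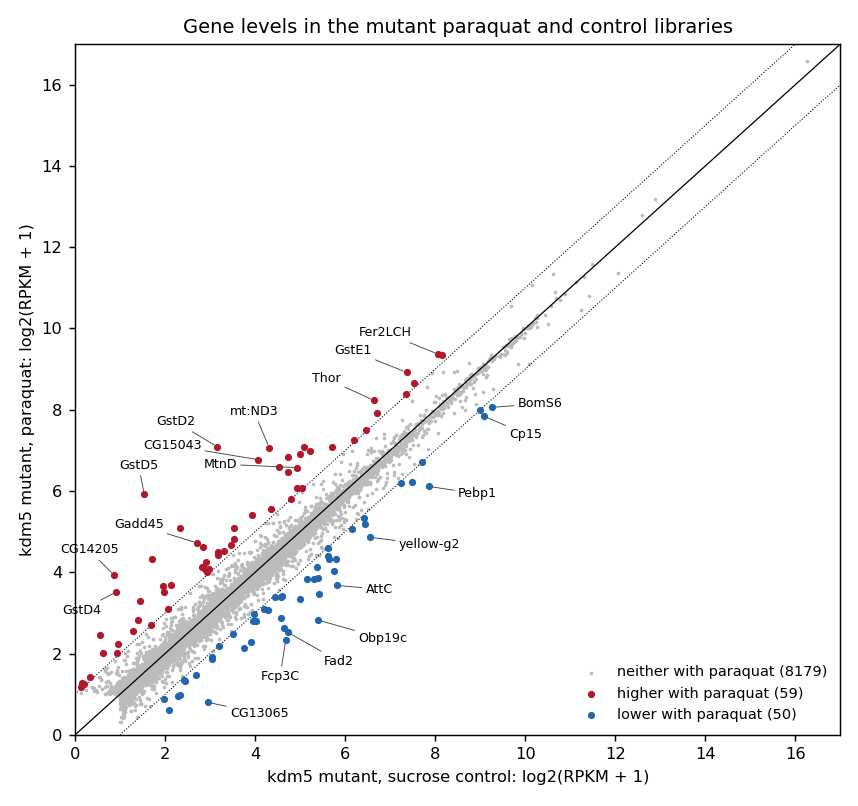
Level of each of 8288 genes in the mutant paraquat library (vertical axis) and the mutant control library (horizontal axis), both as log2(RPKM + 1), with the solid line at equal levels and dotted lines at a difference of 1. The 59 red points above the upper dotted line and the 50 blue points below the lower one stand off a narrow band that holds the other 8179 genes.

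Glutathione S-transferases attach the tripeptide glutathione to reactive molecules, and they made up the largest part of the higher side among the detoxification enzymes. Of 35 measured members 9 were higher and 0 lower, with a median difference of 0.39, against 0.712% higher and a median of −0.05 over all genes. All 9 belonged to 2 tandem clusters. The summed level of the 36 listed members was 2512 RPKM with paraquat and 1412 RPKM in control.

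In the delta cluster on chromosome 3R, GstD2, GstD3, GstD4, GstD5 and GstD6 lie next to each other between 12371971 and 12377907 in the BDGP6 annotation, and all 5 were higher. GstD5 was at 59.5 RPKM with paraquat and 1.90 in control (31.3-fold, 22.4 to 45.2), the furthest difference of any gene. GstD2 was at 135 RPKM with paraquat and 7.94 in control (16.98-fold, 14.5 to 20.0). GstD4 was at 10.4 RPKM with paraquat and 0.880 in control (11.8-fold, 7.32 to 20.4). All 3 were below 8 RPKM in control. GstD3, already at 31.1 RPKM in control, was at 119 RPKM with paraquat (3.82-fold, 3.51 to 4.17). GstD6 was barely detected, with 27 reads with paraquat and 2 in control (13.1-fold, 3.30 to 114). The remaining delta genes differed by less than the size rule. GstD1, the most abundant delta enzyme, was at 486 RPKM with paraquat and 289 in control, a difference of 0.75. GstD10 differed by 0.73 and GstD7 by 0.28, and GstD8 by −0.18.

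In the epsilon cluster on chromosome 2R, 4 of the 9 measured genes between 18398393 and 18408955 were higher. GstE7 was at 136 RPKM with paraquat and 33.0 in control (4.11-fold, 3.79 to 4.46), and GstE3 at 125 RPKM with paraquat and 36.1 in control (3.47-fold, 3.20 to 3.76). GstE1, which overlaps GstE10 in the annotation, was at 483 RPKM with paraquat and 164 in control (2.95-fold, 2.84 to 3.06). GstE8 was at 66.1 RPKM with paraquat and 29.6 in control (2.23-fold, 2.03 to 2.46). Their neighbours GstE2, GstE4, GstE5, GstE6 and GstE10 differed by 0.44, −0.08, 0.61, 0.53 and −0.16. Genes side by side in this cluster thus ranged from a difference of −0.16 to 2.01. Of the other classes, GstO3 differed by 0.60, GstS1 by −0.23 and GstZ1 by −0.48. Members of both clusters are similar in sequence, so that counting of unique reads can lower the level of any of them.

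Metallothioneins, small proteins that bind zinc, copper and other metals, were higher in 4 of 5 measured cases, and MtnA lay just under the rule. Their median difference was 1.06, against 0.712% higher and a median of −0.05 over all genes. MtnD was at 94.4 RPKM with paraquat and 29.6 in control (3.19-fold, 2.79 to 3.65). MtnB was at 27.2 RPKM with paraquat and 10.6 in control (2.57-fold, 2.06 to 3.22). MtnE, which lies beside MtnD on chromosome 3R, was at 151 RPKM with paraquat and 71.8 in control, and MtnC was at 334 with paraquat and 163 in control. MtnA, the most abundant, was at 476 RPKM with paraquat and 242 in control, a difference of 0.97. The 5 differences spanned 0.97 to 1.64. MtnF, which was under the RPKM minimum and so not measured, differed by −0.33.

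The secreted ferritin subunits moved by nearly the same amount. Ferritin stores iron in a shell of heavy and light chains. The light chain gene Fer2LCH was at 659 RPKM with paraquat and 266 in control (2.47-fold, 2.44 to 2.51). The heavy chain gene Fer1HCH was at 648 RPKM with paraquat and 284 in control (2.28-fold, 2.24 to 2.32). The genes overlap head to head on chromosome 3R (30385573 to 30390584), so a part of the reads of each may belong to the other. They were the most abundant of the 59 higher genes.

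The other measured members of the list of CncC pathway and glutathione synthesis genes, 11 of 13, did not reach the rule, and the list's median was 0.25. The level of cnc, which encodes the transcription factor, was 12.3 RPKM with paraquat and 10.9 in control, and that of Keap1, which encodes its inhibitor, 4.23 RPKM with paraquat and 3.31 in control. Gclc, the catalytic subunit of the enzyme that starts glutathione synthesis, was at 13.2 RPKM with paraquat and 8.53 in control, while its partner Gclm was at 81.2 with paraquat and 83.5 in control. The autophagy receptor gene ref(2)P was at 157 RPKM with paraquat and 101 in control.

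The list of superoxide, peroxide and thioredoxin enzymes showed 0 of 14 members past the rule and a median of −0.07. Sod1, the cytosolic superoxide dismutase, was at 157 RPKM with paraquat and 175 in control, and Sod2, the mitochondrial one, at 152 RPKM with paraquat and 168 in control. Catalase, Cat, was at 117 RPKM with paraquat and 113 in control. The member furthest from 0 was the peroxiredoxin gene Prx6b, at 9.43 RPKM with paraquat and 5.83 in control.

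**Figure D2:**
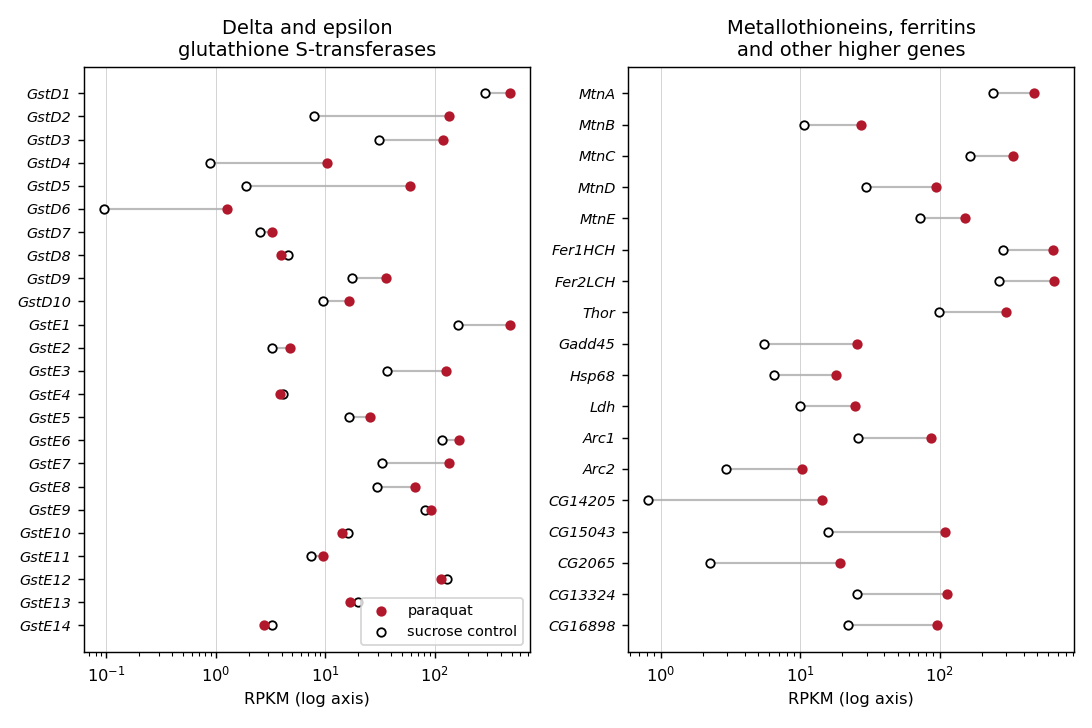
RPKM on a log axis of each measured delta and epsilon glutathione S-transferase gene (left) and of metallothionein, ferritin and other genes (right) in the mutant paraquat library (filled red) and the mutant control library (open). On the left GstD5, GstD2, GstD6 and GstD4 span the widest gaps, from under 8 RPKM in control, whereas on the right MtnA to MtnE and both ferritin genes are shifted by similar amounts.

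Oxidases and sugar transferases of foreign compounds had fewer members past the rule than the glutathione S-transferases. Over all genes 0.712% were higher and 0.603% lower, with a median of −0.05. Of 55 measured cytochrome P450 genes 2 were higher and 1 lower, with a median of −0.02. Cyp4e3 was at 181 RPKM with paraquat and 87.4 in control (2.07-fold, 2.01 to 2.14), and Cyp6d2, which overlaps nsr, at 7.59 RPKM with paraquat and 3.21 in control. The male-biased Cyp4d21 was at 1.52 RPKM with paraquat and 4.47 in control. Cyp28a5 and Cyp9b2 each differed by 0.81 and Cyp28d1 by −0.67. Of 26 UDP-glycosyltransferases, which attach sugars to lipophilic compounds, 1 was higher and 0 lower, with a median of 0.16. That gene, Ugt37A3, was at 23.6 RPKM with paraquat and 6.11 in control (3.86-fold, 3.40 to 4.40), and the next, Ugt49C1, differed by 0.70.

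Damage, growth and chaperone genes contributed 1 member from each list, and over all genes 0.712% were higher. Gadd45, a stress protein that activates stress kinases and acts in DNA repair, was at 25.4 RPKM with paraquat and 5.53 in control (4.59-fold, 3.98 to 5.31), whereas the other 17 members of the list for JNK signalling, apoptosis and DNA damage were neither. Of these Xrp1, a stress transcription factor, was at 84.0 RPKM with paraquat and 53.7 in control, the JNK target puc differed by 0.37, and the cell death gene rpr was at 1.18 RPKM with paraquat and 1.57 in control. Damm, which encodes a caspase and was in no list, was at 15.8 RPKM with paraquat and 6.87 in control (2.29-fold, 1.97 to 2.68) and overlaps CG42531.

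Thor, which encodes the translation inhibitor 4E-BP and is a known target of the transcription factor Foxo, was at 299 RPKM with paraquat and 98.5 in control (3.04-fold, 2.92 to 3.16; chromosome 2L, 3478434 to 3479612). The 18 other insulin and Foxo genes were neither, and their list had a median of 0.13. The insulin-binding protein gene ImpL2 differed by 0.56, Pepck1, an enzyme of glucose synthesis, by 0.47, the growth inhibitor scyl by 0.42 and foxo itself by 0.14. Hsp68, an inducible member of the Hsp70 family, was at 18.1 RPKM with paraquat and 6.49 in control (2.79-fold, 2.49 to 3.13) and overlaps CG6000, and the other 19 measured heat shock and co-chaperone genes were neither, with a list median of −0.04. The co-chaperone gene DnaJ-1 differed by 0.55, Hsp23 by 0.36 and Hsp83 by −0.14. Endoplasmic reticulum stress genes had 0 of 19 past the rule and a median of −0.05. Proteasome subunits had 0 of 32, with a median of −0.05, and autophagy genes 0 of 19, with a median of 0.06. Atg18b and Atg8a, which act in autophagosome formation, differed by 0.72 and 0.47.

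In energy metabolism the listed genes past the rule were that of lactate dehydrogenase, which turns pyruvate into lactate, and 3 mitochondrially encoded transcripts. Ldh was at 24.5 RPKM with paraquat and 9.96 in control (2.46-fold, 2.29 to 2.65), and the 12 other glycolysis genes lay between −0.15 and 0.21. With a pseudocount of 5 Ldh was no longer past the rule. All 15 measured transcripts of the mitochondrial genome had a difference above 0, against 3096 of 8288 over all genes. Their median was 0.72 and 3 were higher, against a median of −0.05 and 0.712% higher over all genes. Mitochondrial small ribosomal RNA, mt:srRNA, was at 33.2 RPKM with paraquat and 4.05 in control (8.22-fold, 6.599 to 10.3). The complex I subunit mt:ND3 was at 133 RPKM with paraquat and 18.9 in control (7.06-fold, 6.06 to 8.26). The third, mt:ND6, had 84 reads with paraquat and 33 in control. Among abundant transcripts mt:CoI, mt:CoII and mt:CoIII, subunits of complex IV, differed by 0.21, 0.12 and 0.30. Others differed by more, with mt:Cyt-b at 0.92, mt:ND1 at 0.88 and mt:ATPase6 at 0.72. Nuclear genes of the respiratory chain had 0 of 67 past the rule, with a median of −0.09 and all between −0.22 and 0.20. Libraries were made by poly-A selection, and mitochondrial reads were 15.5% of the mutant paraquat library and 12.5% of its control. Most of these were from the large ribosomal RNA mt:lrRNA, at 12.9% and 10.4% of the same libraries. The part of polyadenylation or of RNA quality in these differences was not tested.

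Of the 59 higher genes 34 belonged to none of the lists, and 29 carry only a CG number. CG14205 on the X chromosome was at 14.2 RPKM with paraquat and 0.818 in control (17.4-fold, 13.6 to 22.5), behind GstD5 and GstD2 in size of difference. CG15043, also on the X, was at 108 RPKM with paraquat and 15.8 in control (6.84-fold, 6.18 to 7.57). CG2065 was at 19.2 RPKM with paraquat and 2.26 in control, and its neighbour Rdh1, a retinol dehydrogenase gene, at 21.8 with paraquat and 8.97 in control. CG13324 was at 113 RPKM with paraquat and 25.7 in control, and CG16898 at 95.3 RPKM with paraquat and 22.03 in control. CG15784 was at 135 RPKM with paraquat and 51.1 in control, CG13323 at 402 with paraquat and 183 in control, and CG43349 at 243 with paraquat and 104 in control. Arc1 and Arc2, which derive from a retrotransposon Gag gene and lie side by side on chromosome 2R, were at 86.9 and 10.4 RPKM with paraquat and at 25.7 and 2.94 RPKM in control. CG42857 and CG31296 passed on 28 and 57 reads with paraquat and 2 and 6 reads in control, so their folds of 13.6 (3.44 to 118) and 9.25 (3.996 to 26.2) are loosely set.

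Higher genes lay close together in the genome more often than measured genes did. Of the 56 with a nuclear position 25 (44.6%) had another higher gene within 20 kb, whereas 3.47% of the 7994 measured genes with a nuclear position had a higher gene other than themselves that near. They formed 10 groups: the delta and epsilon glutathione S-transferases, MtnD with MtnE, the ferritin genes, Arc1 with Arc2, CG2065 with Rdh1, CG13323 with CG13324, CG43348 with CG43349, CG15043 with CG15044 and CG14205 with CG14219. Apart from the epsilon cluster and the stretch with CG2065 and Rdh1, these spans held no other measured gene, and overlapping or similar neighbours can share reads. By chromosome, 35.6% of the higher genes were on 2R and 32.2% on 3R, where 20.0% and 24.2% of measured genes lie. Of the lower genes 10 of 49 (20.4%) had another lower gene within 20 kb, against 2.89% of measured genes. These were Jon25Bi with Jon25Bii, yellow-g with yellow-g2, Cp15 with Cp19, Phyhd1 with pug, and TotA with TotC. The share of the lower genes on chromosome 3L was 26%, against 18.6% of measured genes.

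Eggshell genes stood out on the lower side. The chorion is the outer eggshell and the vitelline membrane the inner one, both secreted by the follicle cells that surround the egg. Of 10 measured chorion and eggshell genes 5 were lower and 0 higher, all 10 were below 0, and the median was −0.96, against 0.603% lower, 5192 of 8288 below 0 and a median of −0.05 over all genes. Fcp3C, a follicle cell protein gene on the X chromosome (3173376 to 3174474), was at 4.04 RPKM with paraquat and 24.6 in control (6.10-fold lower, 5.06 to 7.41). Next came yellow-g2 at 28.0 RPKM with paraquat and 92.7 in control (3.31-fold lower, 3.10 to 3.53), and its neighbour yellow-g at 16.6 RPKM with paraquat and 40.2 in control (2.42-fold lower, 2.28 to 2.58), both follicle cell genes needed for eggshell hardening. The late chorion gene Cp15 was at 228 RPKM with paraquat and 540 in control (2.36-fold lower, 2.28 to 2.46), and Cp19 at 254 RPKM with paraquat and 513 in control. Their cluster neighbours Cp16 and Cp18 differed by −0.57 and −0.23, so the 4 neighbouring late chorion genes spanned −0.23 to −1.24. Cp19 was no longer past the rule under 2 other library scalings or with mt:lrRNA left out of the totals, and yellow-g overlaps CG32302.

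Among 11 measured genes of the vitelline membrane list, 1 was lower and the median was −0.40, against 0.603% lower and −0.05 over all genes. That gene, dec (defective chorion), was at 32.7 RPKM with paraquat and 70.1 in control (2.14-fold lower, 2.08 to 2.21), with an antisense gene annotated over it, and it was not past the rule with a pseudocount of 5. The structural genes Vm34Ca, Vm26Aa and Vm26Ab were at 561, 361 and 333 RPKM with paraquat and at 1082, 621 and 472 RPKM in control. The summed level of the chorion and eggshell list was 939 RPKM with paraquat and 1743 RPKM in control, and that of the vitelline membrane list 1441 RPKM with paraquat and 2418 RPKM in control. The female germline list did not follow in the mutant: 0 of 19 members passed the rule, the median was −0.05, and the summed level was 1317 RPKM with paraquat and 1314 RPKM in control. In wild type the list had 12 of 19 members lower and a median of −1.19, against 10.4% lower and −0.29 over all genes. That wild type share rests on the scaling, as 879 genes were lower there and 316 with upper-quartile scaling. The list's summed level in wild type was 1723 RPKM with paraquat and 3948 RPKM in control. A single member, dhd, held 775 and 2014 RPKM of these sums. None of the 20 listed germline members was at 0 reads in either mutant library. The part of the stage or number of egg chambers in these differences was not tested.

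Of 7 measured yolk genes 6 had a difference below 0, with a median of −0.71, and 1 passed the rule. For this list and the larval list below, the values over all genes were 5192 of 8288 below 0, 0.603% lower and a median of −0.05. Yolk proteins are made by fat body and follicle cells and taken up by the egg. Yp1, Yp2 and Yp3, which encode them, were at 2626, 1786 and 1395 RPKM with paraquat and at 4296, 2714 and 2423 RPKM in control, differences of −0.71, −0.60 and −0.80 that did not reach the rule. The lipoprotein gene apolpp differed by −0.85, and the yolk receptor gene yl, expressed in the oocyte, by 0.01. The single member past the rule was fit, a female-biased fat body gene that encodes a satiety signal, at 10.04 RPKM with paraquat and 41.9 in control (4.18-fold lower, 3.50 to 5.01). It overlaps other annotated genes. Of the 6 larval serum and larval fat body genes, which encode storage proteins and their receptor, 2 were lower, all 6 were below 0 and the median was −0.69. Fbp1 was at 23.1 RPKM with paraquat and 48.3 in control and Lsp1alpha at 6.81 RPKM with paraquat and 14.7 in control, and neither stayed past the rule under the same scalings.

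Immune effectors formed another group. Of 25 measured antimicrobial peptide and Bomanin genes, which encode small secreted peptides of the Imd and Toll responses, 4 were lower and 0 higher, 22 were below 0, and the median was −0.54. Over all genes 0.603% were lower, 5192 of 8288 were below 0 and the median was −0.05. The summed level of the list was 1632 RPKM in mutants with paraquat and 2662 in mutant control. In wild type it was 1249 RPKM with paraquat and 1242 in control. There 3 of 25 measured members were lower and 0 higher, with a median of −0.14, against 10.4% lower and −0.29 over all genes. Those 3, DptA, DptB and Dso2, differed by −1.92, −1.40 and −1.18 in wild type. In the mutant the attacin gene AttC was at 11.8 RPKM with paraquat and 55.0 in control (4.67-fold lower, 4.14 to 5.28). It overlaps CG4744 in the annotation. The diptericin gene DptA was at 18.9 RPKM with paraquat and 49.0 in control (2.59-fold lower, 2.25 to 2.99), and the Bomanin gene BomS6 at 266 RPKM with paraquat and 615 in control (2.31-fold lower, 2.20 to 2.44). The cecropin gene CecC had 11 reads with paraquat and 38 in control. Dso1 and Dso2, which encode Daisho peptides of the Toll response, differed by −0.76 and −0.84, and the drosomycin-like gene Drsl4 by −0.98. Dro and Drsl2 had positive differences of 0.55 and 0.89, neither past the rule.

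The recognition protein gene PGRP-SB1 was at 3.88 RPKM with paraquat and 14.1 in control (3.62-fold lower, 2.81 to 4.72), while the other 7 measured members of its family were neither. In wild type PGRP-SB1 was lower too, with a difference of −1.43. For this family and the Turandot genes below, the share over all genes in the mutant was 0.603% lower. The signalling components of Toll and Imd had 0 of 22 past the rule and a median of −0.06, with the protease gene SPE furthest at −0.50. Of the Turandot genes, stress-responsive secreted peptides, TotC, TotM and TotA were lower at low levels: TotA was at 7.60 RPKM with paraquat and 17.2 in control, and TotC had 9 reads with paraquat and 54 in control. All 3 calls were lost with a pseudocount of 5 in place of 1. Socs36E, a target and inhibitor of JAK-STAT signalling, differed by 0.81, and the cytokine gene upd3 had 86 reads with paraquat and 19 in control, under the RPKM minimum. Haemocyte markers, from the blood cells that also make immune transcripts, had 0 of 8 past the rule and a median of −0.13, and their summed level was 96.5 RPKM with paraquat and 118 RPKM in control. None of the 8 was at 0 reads. Their part in the peptide differences was not tested.

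**Figure D3:**
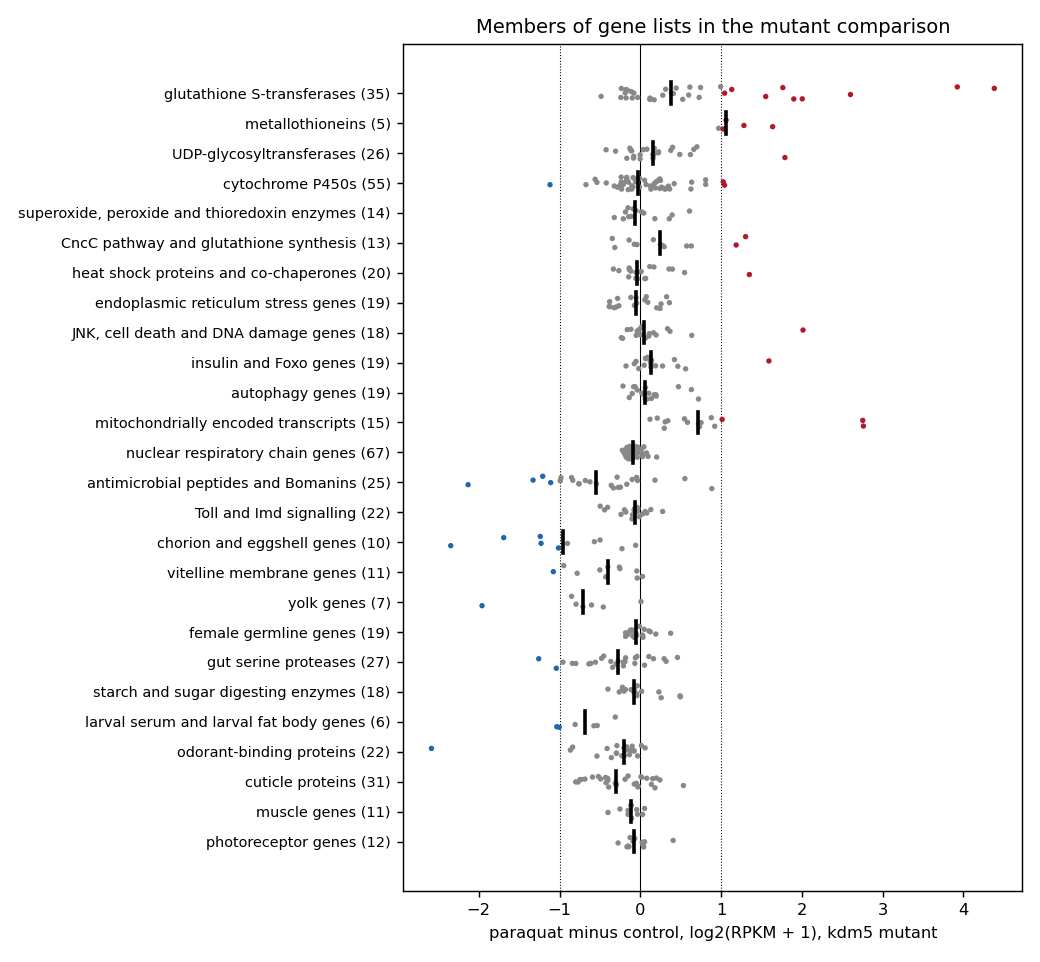
Difference of log2(RPKM + 1), paraquat minus control, of each measured member of 26 gene lists in the kdm5 mutant, with the number of members in brackets, a black bar at the median, red and blue points past the size rule and dotted lines at −1 and 1. Metallothioneins, with a median of 1.06, and mitochondrially encoded transcripts, at 0.72, are shifted as whole lists, the chorion and eggshell list is at −0.96, and most other lists, such as muscle at −0.11, are centred near 0.

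Single members of other lists were also lower, and over all genes 0.603% were lower. Obp19c, an odorant-binding protein gene on the X chromosome (20417921 to 20418964), was the furthest lower of all, at 6.06 RPKM with paraquat and 41.4 in control (6.83-fold lower, 5.84 to 8.02). The other 21 measured odorant-binding protein genes were neither, while 20 of the 22 were below 0, against 5192 of 8288 over all genes, and the median was −0.20. Fad2, a desaturase that makes the female sex pheromones of the cuticle, was at 4.74 RPKM with paraquat and 25.4 in control (5.36-fold lower, 4.57 to 6.32). The other 26 measured lipid enzymes were neither, among them Desat1, the general desaturase, at −0.68 and the lipid droplet protein gene Lsd-1 at 0.76. Jhbp5, of the juvenile hormone binding protein family, was at 5.22 RPKM with paraquat and 23.9 in control (4.57-fold lower, 3.93 to 5.34) and overlaps Jhbp4. The other 19 measured juvenile hormone and ecdysone genes were neither, and the list's median was −0.05. Lst, which is in no list and encodes limostatin, a peptide hormone that limits insulin release, was at 13.2 RPKM with paraquat and 34.7 in control (2.64-fold lower, 2.43 to 2.87).

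Of the lower genes outside the lists, a few were picked out after their values were seen. The folate enzyme gene pug was at 19.0 RPKM with paraquat and 54.7 in control (2.89-fold lower, 2.78 to 2.997) and overlaps CG14683 and CG46459. Uro, the urate oxidase of the Malpighian tubules, was at 13.2 RPKM with paraquat and 38.7 in control (2.93-fold lower, 2.65 to 3.25). Miox, an inositol oxygenase gene, was at 13.5 RPKM with paraquat and 40.8 in control (3.02-fold lower, 2.83 to 3.24). Sardh, which breaks down sarcosine in a folate-dependent step, was at 3.52 RPKM with paraquat and 8.17 in control. Pebp1, of the phosphatidylethanolamine-binding protein family, was at 68.1 RPKM with paraquat and 231 in control (3.40-fold lower, 3.19 to 3.62). Genes with a CG number made up 18 of the 50 lower ones. CG13065 was at 0.737 RPKM with paraquat and 6.77 in control (9.18-fold lower, 5.46 to 16.5), the largest fold of the lower genes. CG3999, CG14834 and CG17108 were at 6.38, 15.3 and 73.8 RPKM with paraquat and at 22.9, 52.7 and 177 RPKM in control.

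Digestive serine proteases had 2 of 27 measured members lower and 21 below 0, with a median of −0.28. Over all genes 0.603% were lower, 5192 of 8288 were below 0 and the median was −0.05. Jon25Bii was at 35.4 RPKM with paraquat and 85.9 in control (2.43-fold lower, 2.25 to 2.63), and its neighbour Jon25Bi, which median-ratio and upper-quartile scaling left short of the rule, at 72.8 with paraquat and 151 in control. Starch and sugar digesting enzymes had 0 of 18 past the rule and a median of −0.08. Muscle, photoreceptor, neuron and cuticle lists also had 0 members past it, of 11, 12, 6 and 31, with medians of −0.11, −0.08, 0.04 and −0.29. Circadian clock genes had 0 of 12, with a median of −0.04, and 81 cytosolic ribosomal protein genes had none and a median of 0.01. Histone lysine demethylase and methyltransferase genes, which include Kdm5, had 0 of 15 past the rule and lay between −0.16 and 0.08.

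**Figure D4:**
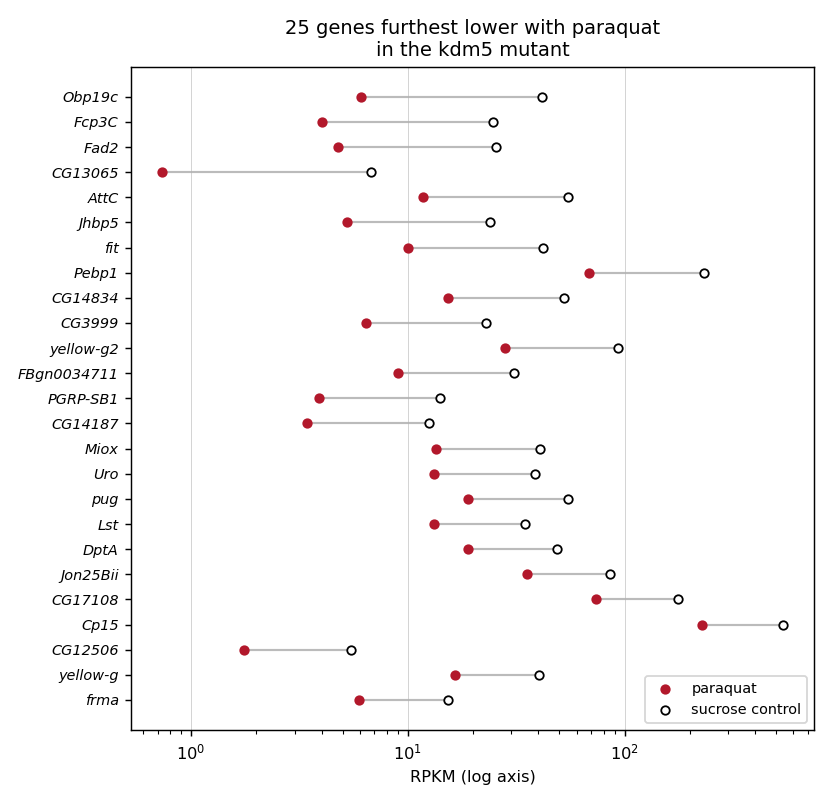
RPKM on a log axis of the 25 genes furthest lower with paraquat among those with at least 5 RPKM in either mutant library, with the paraquat library filled red and the control library open. Obp19c (6.06 RPKM with paraquat, 41.4 in control) heads the order, and eggshell, immune and metabolic genes are interspersed below it.

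The same genes were then read in wild type flies, whose libraries are not shared with the mutant comparison. There 439 of 8429 genes were higher (5.21%) and 879 lower (10.4%), or 15.6% in either direction, so 33.3% of called genes were higher, which other scalings of the libraries turned to 51.8% (median-ratio) and 71.8% (upper-quartile). Of the 59 genes higher in the mutant 37 were also higher in wild type, which is 62.7% of the mutant list and 8.43% of the wild type list, 22 were neither and 0 were lower. Of the 50 lower in the mutant 13 were lower in wild type, 26% of the mutant list and 1.48% of the wild type list, 30 were neither and 7 were higher. The difference of the responses was not tested, since each rests on 1 library a side.

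GstD2 to GstD6, MtnB to MtnE, both ferritin genes, Gadd45 and Ldh passed the rule in both genotypes. GstD1, GstD7, GstD8, GstD9, GstD10 and MtnA were past it in wild type and not in the mutant. GstD1 was at 385 RPKM in wild type with paraquat and 72.0 in wild type control, and at 486 and 289 in the mutant. GstD9 and GstD10 were at 17.5 and 9.46 RPKM in mutant control and at 5.01 and 5.26 in wild type control. MtnA went the other way, at 242 RPKM in mutant control and 350 in wild type control. Ldh was at 42.4 RPKM in wild type with paraquat and 4.41 in wild type control. Other higher genes were not past the rule in wild type. CG14205 was at 6.85 RPKM in wild type with paraquat and 6.32 in wild type control, and CG15043 at 155 and 112. CG13324 was at 79.2 RPKM in wild type with paraquat and 72.5 in wild type control, and Thor at 325 and 201. Arc1 was at 261 RPKM in wild type with paraquat and 160 in wild type control. For each of these 5 genes the mutant control was the lowest of the 4 libraries. GstE8 was at 13.996 RPKM in wild type with paraquat and 13.7 in wild type control, and there the mutant paraquat library was the highest of the 4.

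Over the 59 higher genes the lowest of the 4 libraries was the mutant control for 32, the wild type control for 26 and wild type with paraquat for 1. The highest was mutant paraquat for 27, wild type paraquat for 31 and the wild type control for 1. Over the 50 lower genes the highest library was the mutant control for 32, the wild type control for 13 and wild type paraquat for 5. The mutant libraries chose these genes, so their place in such an order is partly set by the rule. Obp19c, Fad2 and Fcp3C differed by −0.94, −0.65 and −0.36 in wild type. Uro was at 24.2 RPKM in wild type with paraquat and 24.3 in wild type control. AttC was at 5.57 RPKM in wild type with paraquat and 6.95 in wild type control, against 55.0 RPKM in the mutant control. The eggshell genes yellow-g2 and Cp15 differed by −1.69 and −1.24 in the mutant and by −5.28 and −3.47 in wild type.

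**Figure D5:**
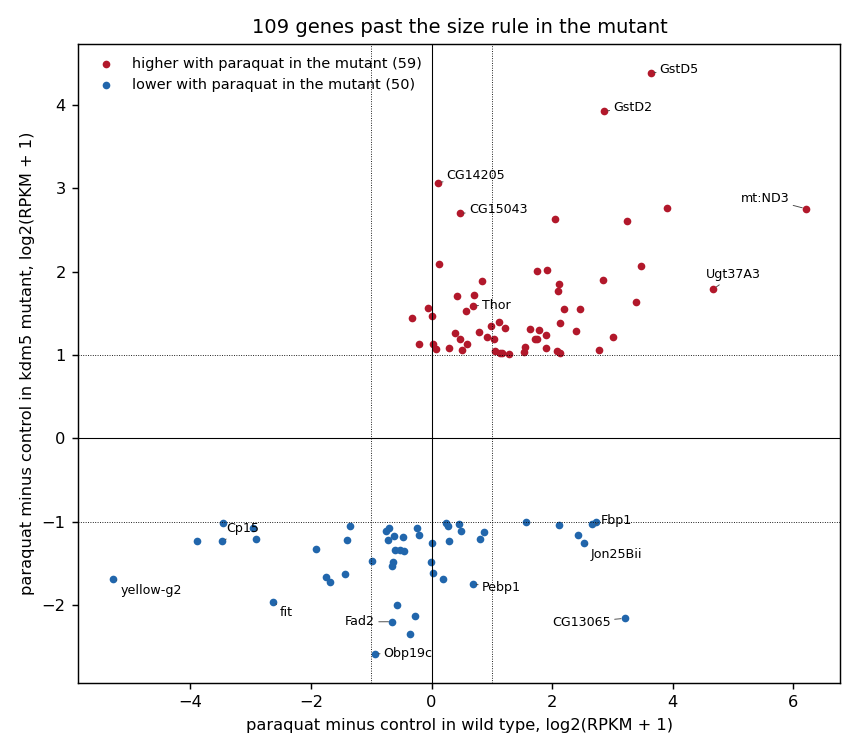
Difference of log2(RPKM + 1), paraquat minus control, in the kdm5 mutant (vertical axis) and in wild type (horizontal axis) for the 109 genes past the size rule in the mutant, with dotted lines at −1 and 1. Of the 59 red points 37 lie past 1 in wild type too, whereas the 50 blue points spread over both sides, 13 past −1 and 7 past 1.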

How the data were processed

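Per the labels' protocols, libraries were made with an Illumina TruSeq kit from poly-A RNA. Cufflinks and dm3 are listed as tool and build, per the submitters' processing notes. For the aligner, annotation and strand setting the choice is not given in the sources used here. For each FlyBase ID the deposited tables hold, per the file headers, the gene length, the uniquely mapped read count, the percent of the length covered by reads and RPKM. The deposited RPKM values equal reads over length and total to within 5.13e-07. Lengths came within 5% of whole gene spans in 91.4% of the 10052 intron-containing genes, so RPKM understates genes with long introns, and differences of log2(RPKM + 1) shrink for them. IDs missing from a table were taken as 0 reads. A symbol was found for 11667 IDs and none for 406, to which 5.80% to 6.39% of reads mapped. A list member not found under its symbol was not used here. Positions are from BDGP6, since the tables carry none.

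Values were used as deposited, with a pseudocount of 1, a minimum of 1 RPKM in either library and Python 3.11.15, pandas 2.3.3 and scipy 1.17.1. Differences are paraquat minus control. The size rule and intervals were also run on simulated Poisson counts, which hold counting error only. That run cannot speak to differences between flies. Genes and 39 lists were chosen with earlier results of these data known, so no list is tested. Every gene past the rule may be named, and so may the 6 members furthest from 0 in a list, all members of the lists described one by one, and genes near the threshold. Of the 109 called genes, 25 overlap another annotated gene. Alternatives were other pseudocounts, minima, scalings, no division by length, and totals without mt:lrRNA.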

Additional observations from a re-analysis of the deposited data

Results flagged for a closer look

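For 7 genes the paraquat difference passed the size rule in opposite directions in the 2 genotypes, lower in the mutant and higher in wild type. Over all genes 5.21% were higher in wild type. The difference between the genotypes was not tested. CG13065 differed by −2.16 in the mutant and 3.20 in wild type. The digestive protease genes Jon25Bii and Jon25Bi differed by −1.26 and −1.04 in the mutant and by 2.52 and 2.12 in wild type. CG5172 differed by −1.16 in the mutant and 2.42 in wild type, and CG8736 by −1.004 in the mutant and 2.73 in wild type. The fat body and larval serum genes Fbp1 and Lsp1alpha differed by −1.03 and −1.004 in the mutant and by 2.66 and 1.57 in wild type. Median-ratio and upper-quartile scaling left CG8736, Fbp1, Jon25Bi and Lsp1alpha short of the rule in the mutant. A pseudocount of 5 did so for CG5172, CG8736, Fbp1 and Lsp1alpha.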

How the results depend on the processing

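With 1 library a group no replicate could be left out, and no value here has a check against differences between flies. No paired analysis was possible because each group has 1 library. A pseudocount of 0.1 gave 101 genes higher and 88 lower in the mutant and 755 higher in wild type, and 5 gave 37 higher and 28 lower mutant genes, with 226 higher and 363 lower in wild type. All 59 and 50 mutant genes were kept with 0.1. A pseudocount of 5 lost 22 higher and 22 lower genes, among those named here Arc2, CG13321, CG14219, CG15044, CG31296, CG42857, Cyp6d2, Damm, GstD6, Ldh, Rdh1 and mt:ND6 on the higher side and CG5172, CG8736, CecC, Cyp4d21, Fbp1, Lsp1alpha, Phyhd1, Sardh, TotA, TotC, TotM and dec on the lower. Median-ratio scaling gave 539 lower genes in wild type, upper-quartile scaling 805 higher and 316 lower, and CPM not divided by length 690 higher. In the mutant, both scalings kept all 59 higher genes and 43 of the 50 lower ones, losing CG11841, CG8736, Cp19, Fbp1, Jon25Bi, Lsp1alpha and Sardh, and the median over all genes stayed between −0.0519 and −0.00275 under the 8 alternatives. A called difference of a named gene or list changed sign in 0 cases, but this was no check of the direction. Other pseudocounts, other minima and no division by length cannot turn the sign for a gene. The other scalings are too small to turn a difference of 1, as upper-quartile scaling shifted the median over all genes by 0.043. Of 494 values of named genes and lists, 104 moved with a pseudocount of 5 and 79 with upper-quartile scaling. A difference was said to move when it changed by more than counting error, and a count when it changed by more than a set factor. Of the called genes 5 higher and 5 lower had under 100 reads in both mutant libraries, and a minimum of 5 RPKM removed 9 higher and 6 lower ones, among them GstD6, CecC, Cyp4d21, TotC and TotM.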
